A study of Nannochloropsis gaditana with 4 samples.

Results

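The 5 transcripts described here, DGAT1, DGAT2, DGAT3, DGAT4 and DGAT5, are those whose rows the deposited tables name diacylglycerol acyltransferase. They were taken by symbol and make up 5 of the 44 genes measured by real-time quantitative PCR in *Nannochloropsis gaditana* strain CCAP 849/5, a single-celled marine alga that stores oil. Cultures were grown in batch for 13 days under flashing light at 5, 50 or 500 Hz, lit for a fraction of 0.05 of each cycle, or under continuous light, and every culture received the same mean light of 300 µmol s-1 m-2, delivered at 6000 µmol s-1 m-2 during a flash. Each of these 4 conditions is 1 sample with 3 numbered repeats. The series' design text says that equal amounts of RNA were pooled, and no source used here says what a repeat is, a separate flask or only a further PCR well. The columns of the tables are numbered and are not tied to a flash frequency, so the flashing-light samples are called samples 2, 3 and 4 by those numbers. Continuous light is the column by which the authors' deposited fold table divides.

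Diacylglycerol acyltransferases catalyse the last step of triacylglycerol synthesis, in which an acyl chain from acyl-CoA is joined to diacylglycerol. Upstream, glycerol-3-phosphate is acylated by the acyltransferases GPAT and LPAT to phosphatidic acid, which phosphatidic acid phosphatase turns into diacylglycerol. In algae the enzyme occurs as structurally unrelated type 1 and type 2 proteins, and species of *Nannochloropsis* carry several type 2 genes. The tables give all 5 rows the same enzyme name and assign none to a type, so the number in a symbol is used here only as a name.

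Values are normalized quantities, the PCR ratio of a gene divided by the authors by the signal of 2 reference genes. Each gene is on its own scale, relative to the highest of its 12 values before normalization. A value can therefore be compared between samples for 1 gene but not between genes. Changes are differences of log2 means over the 3 repeats, and the error of a change is the propagated SD, which adds the squared repeat SDs of both samples and takes the root. A gene is said to have risen or fallen where the change was beyond 2 propagated SDs and the repeats of both samples did not overlap. With 1 sample per condition this is a rule of size and no test between conditions can be made. The repeats cannot be taken to measure the spread between cultures, since what a repeat is remains unknown.

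Within the family, flashing-light sample 2 differed most from continuous light, with DGAT2 higher and DGAT3 lower. DGAT2 rose 1.48-fold and DGAT3 fell to 0.608-fold, while DGAT4 stood at 0.995-fold and DGAT5 at 0.911-fold. In sample 3, DGAT3 again fell, to 0.756-fold, and in sample 4 none of the 5 transcripts passed. These calls hold for the authors' reference genes: in sample 2 the direction of DGAT2 turned with UFP as reference and that of DGAT3 with beta tubulin (BT). In sample 3 the DGAT3 call was kept only with CYP, with PAP1 and when centred on the median target, of 10 alternative references, and its direction turned with AT1 and BT. With the authors' reference genes, none of the 5 reached a 2-fold change in any of the 3 samples. Of the 36 target genes, those not used or named as reference genes, 13.9% were at least 2-fold apart from continuous light in sample 2. The share was 2.78% in sample 3 and 0% in sample 4, so none among 5 is near these shares. DGAT3 in sample 2 was beyond 2-fold with UFP and when centred, at log2 changes of −1.32 and −1.04. With BT, DGAT1, DGAT2, DGAT4 and DGAT5 were more than 2-fold higher in samples 2 and 3. The median target was also more than 2-fold higher in both samples with BT, so this was not particular to the family. With BT, DGAT1 did not pass the rule in sample 2, and no member passed it in sample 3.

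DGAT2 had normalized quantities of 1.09, 1.07 and 1.03 in flashing-light sample 2, against 0.665, 0.802 and 0.701 in continuous light. Each repeat of sample 2 lay above every repeat of continuous light. The log2 change was 0.56 ± 0.14 (propagated SD, n = 3 repeats), and among the 36 targets 27.8% rose by the same rule. In sample 3 the repeats were at 0.819, 0.796 and 0.806, close to each other and just overlapping the highest repeat of continuous light, repeat 2. The log2 change was 0.16 ± 0.14, in a sample in which 0% of targets rose. Without repeat 2 it was 0.25 and passed. Sample 4, with 0.710, 0.581 and 0.728, spread on both sides of continuous light and stood at −0.11 ± 0.23. The order of the means was sample 2, sample 3, continuous light, sample 4. Only the step between samples 2 and 3 passed the rule: sample 3 against continuous light and sample 4 against continuous light were within 2 propagated SDs.

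DGAT3 moved the other way. Its quantities were 0.464, 0.478 and 0.482 in flashing-light sample 2, against 0.749, 0.768 and 0.825 in continuous light. The repeats of sample 2 were tight, far below those of continuous light, and the log2 change was −0.72 ± 0.08. By the same rule 11.1% of targets fell in sample 2. In sample 3 the repeats were 0.591, 0.557 and 0.624, again all below continuous light, at a log2 change of −0.40 ± 0.11. DGAT3 was 1 of the 2 targets, 5.56%, that fell in sample 3. The repeats of sample 4, at 0.695, 0.673 and 0.744, lay just below the lowest repeat of continuous light. That change, −0.15 ± 0.10, was within 2 propagated SDs and was not counted. It passed, at −0.15, without repeat 3 and with differences taken within a repeat number. In sample 4, 2.78% of targets rose and 2.78% fell. The order of means was therefore continuous light, sample 4, sample 3, sample 2, and neighbours passed the rule except for sample 4 against continuous light.

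**Figure D1:**
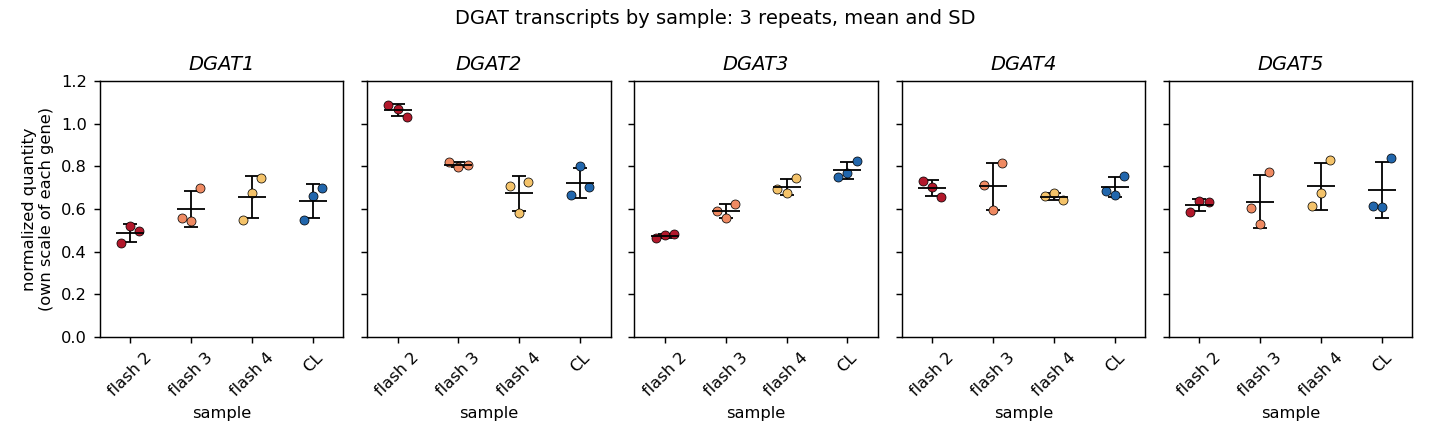
Normalized quantity (vertical axis, on the own scale of each gene) of the 5 DGAT transcripts in flashing-light samples 2, 3 and 4 and in continuous light (CL); points are the 3 repeats, bars the mean and SD. DGAT2 is highest in sample 2, at 1.03 to 1.09, DGAT3 is lowest there, at 0.464 to 0.482 (with the authors' reference genes; DGAT2 turns with UFP and DGAT3 with BT), and the repeats of DGAT4 and DGAT5 overlap between all samples and continuous light.

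DGAT1 lay between these patterns. It had 0.440, 0.521 and 0.498 in flashing-light sample 2, against 0.549, 0.662 and 0.701 in continuous light. The repeats did not overlap, but the log2 change of −0.38 ± 0.22 was within 2 propagated SDs and DGAT1 was not counted as changed. It passed, at −0.42, without repeat 1, and at −0.38 with differences taken within a repeat number. In samples 3 and 4 it stood at −0.09 ± 0.27 and 0.04 ± 0.29, with repeats that overlapped those of continuous light. Its order of means was sample 4, continuous light, sample 3, sample 2, with no step between neighbours beyond 2 propagated SDs.

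With the authors' reference genes, DGAT4 had the flattest profile of the family. Its quantities were 0.730, 0.705 and 0.659 in flashing-light sample 2, 0.711, 0.594 and 0.815 in sample 3, 0.660, 0.673 and 0.641 in sample 4, and 0.685, 0.666 and 0.755 in continuous light. All 3 flashing-light samples overlapped continuous light, with log2 changes of −0.01 ± 0.12, −0.00 ± 0.25 and −0.09 ± 0.10. The means of the 4 samples spanned 0.09 log2, and 2 of the 36 targets spanned less. Which member is flattest depends on the reference. With UFP the changes of DGAT4 were −0.61, −0.04 and 0.12 in samples 2, 3 and 4. Those of DGAT2 were then −0.04, 0.12 and 0.10. UFP is the gene with the profile most like that of DGAT2, as given below, so dividing by it flattens DGAT2 by construction.

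DGAT5, with the same reference genes, was also near its level in continuous light throughout, with a wider spread. It had 0.588, 0.638 and 0.634 in flashing-light sample 2, 0.602, 0.528 and 0.773 in sample 3, and 0.614, 0.673 and 0.830 in sample 4, against 0.616, 0.609 and 0.839 in continuous light. Repeat 3 was the highest in continuous light and in samples 3 and 4. The changes were −0.14 ± 0.27, −0.12 ± 0.38 and 0.04 ± 0.34 in samples 2, 3 and 4. With the authors' reference genes its means spanned 0.18 log2, those of DGAT1 0.42, those of DGAT2 0.67 and those of DGAT3 0.72. The median span over the 36 targets was 0.63, so DGAT2 and DGAT3 were near the middle of the targets and the other three below it.

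Read as a family, the 5 members had a median log2 change of −0.14 in sample 2, −0.09 in sample 3 and −0.09 in sample 4, where the 36 targets, the 5 members included, had 0.20, −0.04 and −0.08. The members did not move together in sample 2, where they spanned 1.28 log2, against 0.57 in sample 3 and 0.19 in sample 4. For 10 other targets on the route to triacylglycerol, described below, the spans were 1.25, 0.59 and 0.53 in samples 2, 3 and 4. All 36 targets spanned 3.63, 1.37 and 0.86, and longer lists tend to span more. A span widest in sample 2 was thus not particular to the family. These 3 comparisons share the continuous-light sample.

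Ratios between members were taken next, because the ratio of 2 transcripts in the same sample and repeat uses no reference gene. Such a ratio shows unequal change and not which member moved, and its level has no meaning across genes, so only its change is read. In flashing-light sample 2, 7 of the 10 pairs of DGAT transcripts changed against continuous light by the same rule. Over the 630 pairs of target genes 43.3% changed in this comparison, and the median size of the change was 0.58 log2 for the DGAT pairs and 0.55 for all target pairs. Pairs share genes, so the 10 are not independent.

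The DGAT2 to DGAT3 ratio shifted furthest within the family, which follows by construction from DGAT2 having the highest change and DGAT3 the lowest. Relative to the scales of the table the ratio was 2.34, 2.24 and 2.14 in the repeats of sample 2. In continuous light it was 0.887, 1.04 and 0.850. The ratio was thus 2.42-fold higher, a log2 change of 1.28 ± 0.17, with all repeats of sample 2 above those of continuous light. Of the 630 target pairs, 13.3% shifted by more, though those pairs were not picked and this one is the largest of 10. The DGAT1 to DGAT2 ratio, at −0.95 ± 0.22, and the DGAT3 to DGAT4 ratio, at −0.71 ± 0.11, came next. DGAT2 also gained on DGAT5, by 0.70 ± 0.34 and narrowly beyond 2 propagated SDs, and on DGAT4, by 0.57 ± 0.20. DGAT3 lost against DGAT5 by −0.58 ± 0.20. The DGAT1 to DGAT3 ratio rose by 0.33 ± 0.17, also narrowly beyond 2 propagated SDs, so DGAT3 was lower relative to each of the other 4 members. Without repeat 2 or repeat 3 that ratio no longer passed, at 0.33 and 0.36, and without repeat 1 the DGAT2 to DGAT5 ratio did not, at 0.66. Neither of these ratios passed with the median of the repeats in place of the mean. The 3 pairs that did not pass were the pairs among DGAT1, DGAT4 and DGAT5, the DGAT1 to DGAT4 ratio at −0.38 ± 0.24, the DGAT1 to DGAT5 ratio at −0.25 ± 0.21 and the DGAT4 to DGAT5 ratio at 0.13 ± 0.21. Of these, DGAT1 to DGAT4 passed without repeat 1, at −0.36, and with differences taken within a repeat number (the replicate block), at −0.38. DGAT1 to DGAT5 passed without repeat 2, at −0.17.

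In flashing-light sample 3, 2 of the 10 ratios changed, where 5.24% of target pairs did. The DGAT2 to DGAT3 ratio was 1.39, 1.43 and 1.29, against 0.887, 1.04 and 0.850 in continuous light, a change of 0.57 ± 0.17. DGAT3 to DGAT4 changed by −0.40 ± 0.15, and both pairs hold DGAT3. Without repeat 1 the DGAT3 to DGAT4 ratio, then −0.41, did not pass. The DGAT1 to DGAT3 ratio, at 0.31 ± 0.18, passed with the replicate block. Without repeat 3 the DGAT1 to DGAT2 and DGAT3 to DGAT5 ratios passed too, both at −0.28. In sample 4 none of the 10 ratios changed, where 2.22% of target pairs did, and the DGAT2 to DGAT3 ratio was 1.02, 0.863 and 0.978, overlapping continuous light at 0.04 ± 0.20. Without repeat 2 of each sample it stood at 0.20 and passed, as did the DGAT2 to DGAT4 ratio, at 0.22. The DGAT1 to DGAT3 ratio passed without repeat 1, at 0.23.

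**Figure D2:**
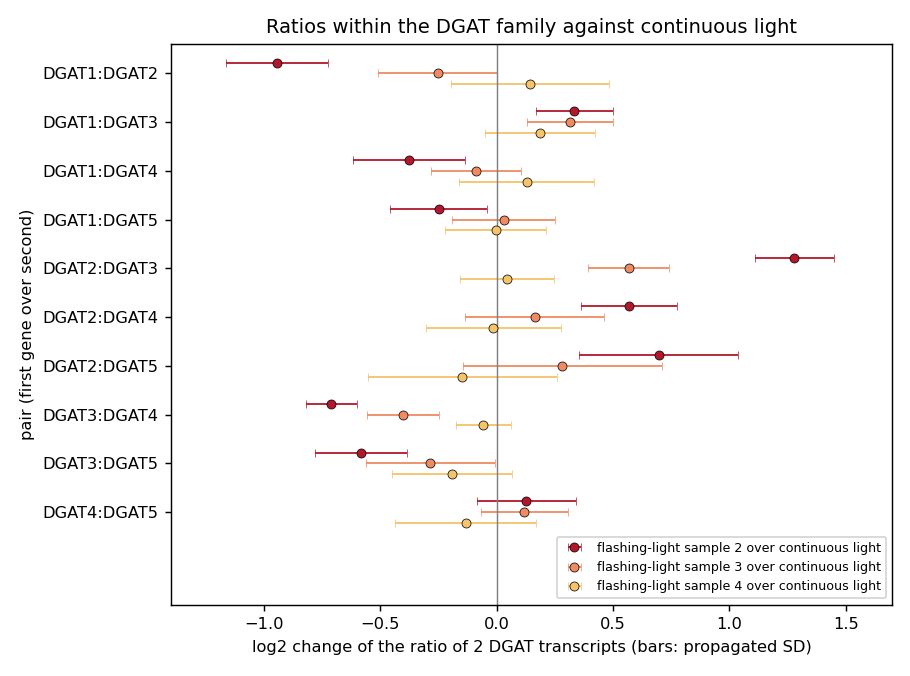
Log2 change of the ratio of each pair of DGAT transcripts (first gene over second, horizontal axis) in flashing-light samples 2, 3 and 4 over continuous light; points are means over 3 repeats and bars the propagated SD. The DGAT2 to DGAT3 ratio lies at 1.28 in sample 2, 0.57 in sample 3 and 0.04 in sample 4.

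The flashing-light samples were also set against each other. In sample 3 against sample 2, DGAT2 was lower by a log2 change of −0.40 ± 0.04 and DGAT3 higher by 0.31 ± 0.09, where 33.3% of targets were lower and 8.33% higher. In sample 4 against sample 2 the same members passed, DGAT2 at −0.67 ± 0.18 and DGAT3 at 0.57 ± 0.08, where 44.4% of targets were lower and 11.1% higher. Between samples 4 and 3, DGAT3 alone passed, higher in sample 4 by 0.25 ± 0.11, where 11.1% of targets were higher and 2.78% lower. Without repeat 1 that change, 0.26, did not pass. The repeats of DGAT2 were also apart there, at −0.27 ± 0.18, within 2 propagated SDs, and passed without repeat 2, at −0.18. DGAT1 stood at 0.42 ± 0.26 in sample 4 against sample 2, with repeats apart and within 2 propagated SDs, and passed without repeat 1, at 0.47, and with the replicate block. DGAT4 and DGAT5 passed in none of the 3 comparisons with the authors' reference genes and all repeats. In sample 4 against sample 2, DGAT4 passed without repeat 3, at −0.11. The DGAT2 to DGAT3 ratio passed in each, at −0.71 ± 0.10 in sample 3 against sample 2 and −1.23 ± 0.14 in sample 4 against sample 2. In sample 4 against sample 3 it stood at −0.52 ± 0.15. Other ratios passed too. In sample 3 against sample 2 these were DGAT1 to DGAT2, at 0.69 ± 0.25, and DGAT1 to DGAT5, at 0.28 ± 0.12. In sample 4 against sample 2 both passed again, with DGAT2 to DGAT4, DGAT2 to DGAT5, DGAT3 to DGAT4 and DGAT3 to DGAT5. The share of target pairs was not taken between flashing-light samples.

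The single changes between flashing-light samples, unlike the ratios, depended on the reference gene. In sample 3 against sample 2 neither DGAT2 nor DGAT3 passed with ACT, AT1 or BT, and DGAT2 turned to 0.16 with UFP and to 0.02 when centred on the median target. In sample 4 against sample 2, DGAT2 turned to 0.14 with UFP and DGAT3 to −1.31 with BT. DGAT4 passed there in opposite directions, at 0.72 with UFP but at −1.97 with BT and −0.54 with GAPDH. DGAT5 passed at 0.98 with UFP, at −1.71 with BT and at 0.46 when centred. In sample 4 against sample 3, DGAT3 kept its call with PAP1 alone and when centred, and stood at or below 0 with AT1, GAPDH and BT, at −1.33 with BT. There DGAT1 passed with TEF1, at −0.12, and DGAT2 with GAPDH, at −0.53.

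On the route to triacylglycerol, 10 further targets were picked by symbol prefix. They belong to glycerol-3-phosphate supply, acylation, dephosphorylation and acyl-CoA formation. PAP1, as a reference gene, and the genes of fatty acid synthesis were not among them. With the authors' reference genes, 4 of these 10 targets rose and 1 fell in flashing-light sample 2, with a median log2 change of 0.28. Of all 36 targets, these 10 included, 27.8% rose and 11.1% fell, with a median of 0.20, so the counts were near that background. GPD1, a glycerol-3-phosphate dehydrogenase, which makes the glycerol backbone, rose by 0.85 ± 0.25 and the phosphatase PAP2 by 0.78 ± 0.25. The acyltransferases GPAT and LPAT1 rose by 0.43 ± 0.21 and 0.40 ± 0.20, and a further phosphatase gene, PAP3, changed by −0.20 ± 0.09. Calls on the 10 genes were not repeated with other references. In sample 2, UFP as reference shifts every gene by −0.60, more than the rises of GPAT and LPAT1. TEF1 shifts every gene by 0.30, more than the fall of PAP3. DGAT2, at 0.56, stood within the range of the 4 genes that rose. GPD2 stood at −0.39 ± 0.39, LCS2, a long-chain acyl-CoA synthetase, at 0.43 ± 0.29, LCS1 at 0.16 ± 0.77, LPAT2 at 0.15 ± 0.22 and GPD3 at 0.02 ± 0.13, all within 2 propagated SDs. None of the 10 passed in sample 3 or sample 4, where their medians were 0.00 and −0.16.

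**Figure D3:**
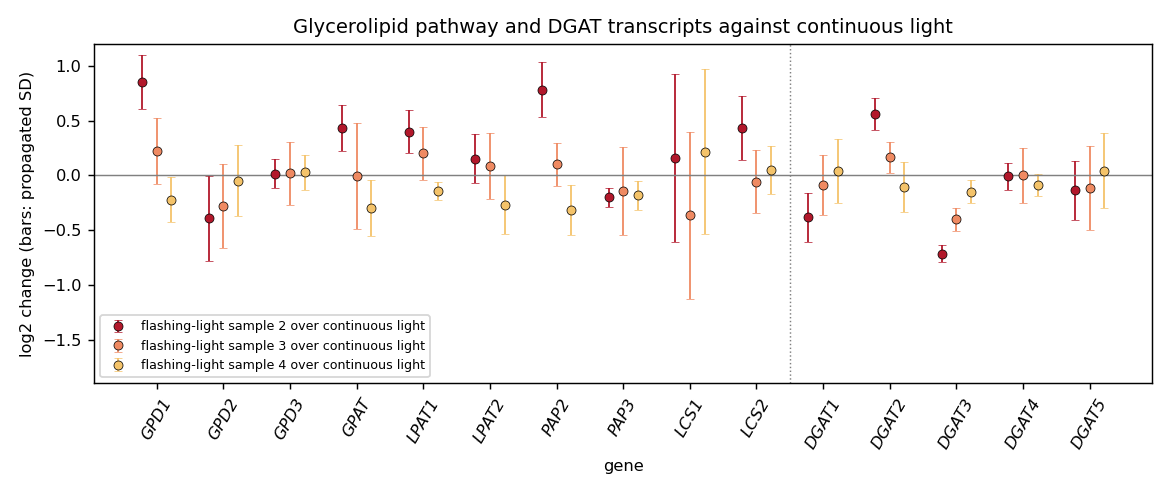
Log2 change of the normalized quantity (vertical axis) of 10 pathway genes, left of the dotted line, and the 5 DGAT genes, right of it, in flashing-light samples 2, 3 and 4 over continuous light; points are means over 3 repeats and bars the propagated SD. In sample 2, with the authors' reference genes, DGAT3 is the lowest of the 15 at −0.72, and GPD1 and PAP2 are the highest at 0.85 and 0.78.

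Likeness of profile was measured as the SD, over the 4 samples, of the log2 ratio of a gene to a DGAT member, from sample means without any reference, over the 43 other genes. It describes only 4 points, which come from the same pooled RNA for all genes. The genes most like DGAT2 were the ubiquitin family gene UFP and ALAD, an enzyme of tetrapyrrole synthesis, both at 0.08. For both DGAT1 and DGAT3 they were GAPDH, at 0.07 and 0.11, and GPD2, at 0.09 and 0.14. DGAT4 was nearest to AGPase2, of storage glucan synthesis, and KAR2, a reductase of fatty acid synthesis, both at 0.04. DGAT5 was nearest to the elongation factor TEF1, at 0.07, and to CYP, at 0.08, which is cyclophilin and a reference gene of the authors' normalization. Within the family DGAT4 and DGAT5 were the closest pair, at 0.12, and DGAT2 and DGAT3 the most unlike, at 0.60.

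The reference gene sets the size of each single change, though not of a ratio. The authors' divisor was the geometric mean of CYP and PAP1, and PAP1 is itself a phosphatidic acid phosphatase, the enzyme that forms the diacylglycerol used by these acyltransferases. The choice between those reference genes made little difference: DGAT2 in sample 2 stood at 0.58 with CYP alone and 0.54 with PAP1 alone, and DGAT3 at −0.70 and −0.73. With actin (ACT) they were 0.54 and −0.74. With CYP, PAP1 or ACT alone, both members passed the rule in sample 2, and with ACT the DGAT3 change in sample 3, −0.32, no longer did. Other reference genes moved all 5 members together, as they did the median target, by 0.30 with TEF1, 0.32 with alpha tubulin AT1, 0.44 with GAPDH, −0.60 with UFP and 1.61 with beta tubulin BT. DGAT2 was then above continuous light in sample 2 with each of these except UFP, at −0.04, and DGAT3 below it with each except BT, at 0.89. DGAT2 passed the rule with GAPDH and BT but not with TEF1, AT1 or UFP. DGAT3 passed with UFP but not with TEF1, AT1, GAPDH or BT. DGAT4 and DGAT5 passed as higher with GAPDH, at 0.43 and 0.30, and with BT, at 1.60 and 1.47. Centred on the median target they passed as lower, at −0.33 and −0.46, and DGAT1 did so both centred and with UFP, at −0.71 and −0.98. In sample 3, DGAT3 passed with none of these 5, and stood above continuous light with AT1, at 0.05, and BT, at 0.91. The order of the 5 log2 changes in sample 2 did not depend on the reference, since a reference shifts all alike. DGAT2 had the highest change against continuous light and DGAT3 the lowest, whichever reference was used. Set against the median target within each repeat, DGAT2 stood at 0.24, which did not pass, and DGAT3 at −1.04, which passed.

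**Figure D4:**
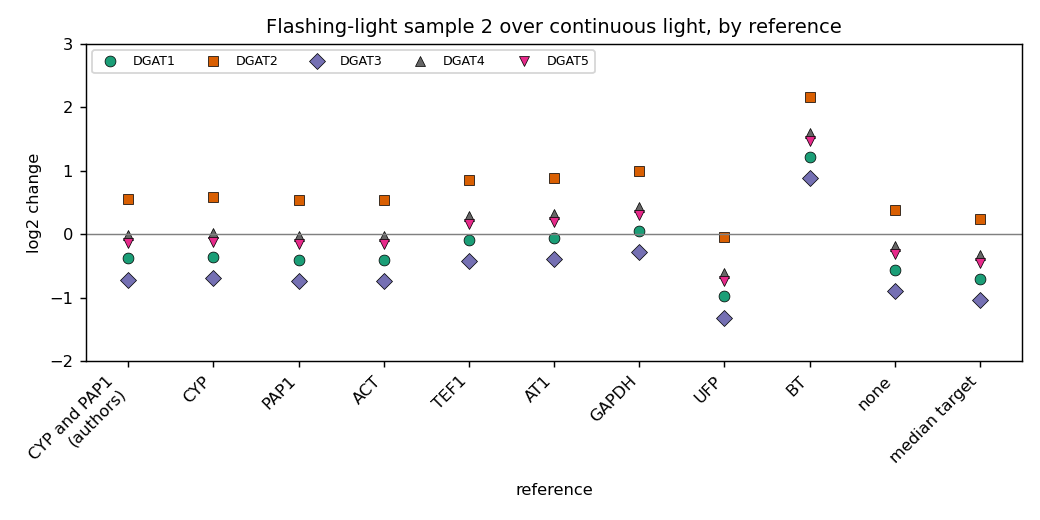
Log2 change (vertical axis) of the 5 DGAT transcripts in flashing-light sample 2 over continuous light, with the authors' pair of reference genes, each of 8 single reference genes, no reference, and each repeat centred on the median target (horizontal axis). DGAT2 is uppermost and DGAT3 lowest in every column, while BT lifts all 5 above 0 and UFP brings all 5 below it.

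Before normalization the sample 4 values were widely spread, and division by the authors' factor, which ran from 0.757 to 1.49 in that sample, narrowed them. The log2 SD of DGAT3 over the repeats of sample 4 was 0.42 before and 0.07 after, and that of DGAT4 was 0.53 before and 0.04 after. The narrowing was smaller for DGAT1, from 0.43 to 0.22, DGAT2, from 0.36 to 0.18, and DGAT5, from 0.34 to 0.22. In repeat 2 of sample 4, which had the highest factor of all, 4 of the 5 DGAT genes and 25 of the 44 genes had the highest of their 12 values. DGAT1, DGAT3, DGAT4 and DGAT5 therefore share the normalized value 0.673 there, which comes from each gene being scaled to its own highest value. No threshold cycles were used here, so the distance of any value to the detection limit is unknown.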

How the data were processed

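Transcripts were measured by SYBR Green quantitative PCR in 4 samples, and 3 tables of 132 rows, 3 repeats for each of 44 genes, were used. Per the file headers, the authors deposited a table not normalized, a table normalized to housekeeping genes and a fold table of test over control. All hold a linear ratio. Per the labels, 1 sample is the control. The authors' divisor was recomputed and held for 43 genes within 0.1%. MCT, whose deposited normalized row equals the factor, was recomputed. Instrument, software and efficiencies were not given. Ratios lay on steps of 0.01 cycle at a base per gene, 1.98 to 2.08 for the DGAT genes. Values were averaged on the log2 scale with numpy 2.4.6 and Python 3.11.15, after the functions were tested on simulated data. Named genes are the 5 members, pathway genes by symbol prefix, and the 2 genes most like each member. Members, lists and rules were chosen with earlier results of these data known. Alternatives covered the reference, the repeats, the averaging, the base and the rule of size. Locus identifiers and sequences are not reported here.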

Additional observations from a re-analysis of the deposited data

How the results depend on the processing

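Over the alternatives tried, 330 of 330 changes of DGAT pair ratios against continuous light moved by less than their propagated SD. Many of these could not move. The replicate block, the changes of rule and the ratio of the authors' normalized values keep the mean log2 ratio by construction. Other references were tried on single members only. Of 615 values of single members, 483 moved by less than their propagated SD, 121 moved further and 11 reversed. The 2 shares are therefore not comparable. Another reference shifts all members alike by construction; no other cause was tested. Reversed log2 changes were, with UFP, DGAT2 in sample 2 against continuous light at −0.038, in 3 against 2 at 0.16 and in 4 against 2 at 0.14, and with centring on the median target DGAT2 in 3 against 2 at 0.019. DGAT3 reversed with AT1 in 3 against continuous light at 0.049 and 4 against 3 at −0.0035, with GAPDH in 4 against 3 at −0.0051, and with BT at 0.89 (2) and 0.91 (3) against continuous light, −1.31 in 4 against 2 and −1.33 in 4 against 3.

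Counts of members that changed were as follows. The share of all targets that changed was taken in the reported setting only. A count under an alternative therefore has no background. With another reference all targets shift alike, so whether such a count is particular to the family was not tested. Sample 2 against continuous light (2 as reported) gave 0 with TEF1 or AT1, 1 with no reference, 4 with centring, 1 at 1.5-fold, 0 at 2-fold, and 3 with BT or GAPDH (DGAT2, DGAT4 and DGAT5), without repeat 1, with the replicate block, non-overlap alone and the deposited fold table (DGAT1 added). UFP gave 2, DGAT1 and DGAT3. Sample 3 (1) gave 0 with ACT, TEF1, UFP, AT1, BT, GAPDH, no reference, 1.5-fold and 2-fold. Sample 4 (0) gave 1 with centring, differences within a repeat number (replicate block), non-overlap alone and the authors' deposited fold table, each time DGAT3. Sample 3 against 2 (2) gave 0 with ACT, AT1, BT, 1.5-fold and 2-fold, 1 with TEF1 or GAPDH, 3 with UFP or non-overlap alone and 4 with centring; with no reference the 2 were DGAT1 and DGAT3. Sample 4 against 2 (2) gave 1 with TEF1, AT1, no reference and 1.5-fold, 4 with UFP, BT and centring, 0 at 2-fold, and 3 with the replicate block, non-overlap alone and without repeat 1 (DGAT1 added) or repeat 3 (DGAT4 added); with GAPDH the 2 were DGAT2 and DGAT4. Sample 4 against 3 (1) gave 0 with CYP, ACT, UFP, AT1, BT, no reference, 1.5-fold and 2-fold, and 2 with non-overlap alone; the 1 was DGAT1 with TEF1 and DGAT2 with GAPDH. Pair ratios in sample 2 (7) gave 4 at 1.5-fold, 1 at 2-fold and 9 with non-overlap alone. In sample 3 (2) they gave 0 at both folds and 3 with non-overlap alone. Leaving out 1 repeat gave 1 to 2 members in sample 3, 0 to 1 in sample 4 and 0 to 2 in 4 against 3, and 1 to 4 pair ratios in sample 3 and 0 to 2 in sample 4.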
